A study of Homo sapiens with 4 samples.

Results

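The NRF2 pathway was followed through 9 genes in 4 RNA-seq libraries of the glioblastoma (GBM) cell line U87MG. These were NFE2L2, which encodes NRF2, its repressor KEAP1, and the antioxidant target genes HMOX1, NQO1, GCLC, GCLM, SLC7A11, TXNRD1 and SRXN1. They were chosen by name, with earlier results of these data known. All 9 were found among the 58226 gene IDs of the files through their GENCODE 29 symbols. All 9 also passed the filter on low counts in each of the 3 comparisons below. The study asked how HDAC6, a cytoplasmic deacetylase, and the long non-coding RNA *LINC00461* act in GBM cells and in their resistance to temozolomide (TMZ), a DNA-alkylating drug. TMZ-resistant cells (R-U87MG), kept in medium with 50 µM TMZ, were transfected with a non-targeting control siRNA (si-NC) or with si-HDAC6. The parental U87MG line was given the same control or si-*LINC00461*, and RNA was taken 72 h after transfection. The paper lists 1 siRNA sequence for *LINC00461* and several for HDAC6 and the control. Other effects of that siRNA cannot be told apart from loss of *LINC00461*. U87MG is an established human GBM line, and whether the resistant cells are 1 clone or a pool is not given in the sources used here. Each condition was 1 library, so no difference below has a replicate check. Between R-U87MG and U87MG, the resistant state, TMZ in the medium and anything else that differed between the pairs of cultures cannot be told apart.

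NRF2 is the main transcription factor of the cell's response to oxidants and electrophiles. In unstressed cells KEAP1, an adaptor of a cullin ubiquitin ligase, binds NRF2 and marks it for degradation. When cysteines of KEAP1 are modified, NRF2 accumulates, pairs with small MAF proteins and binds antioxidant response elements, short DNA motifs near its target genes. NRF2 is therefore controlled largely as a protein, and the mRNA of NFE2L2 is not a measure of its activity. The targets make glutathione (GCLC, GCLM, SLC7A11), serve the thioredoxin system (TXNRD1, SRXN1), reduce quinones (NQO1) and break down heme (HMOX1). In tumor cells the pathway is known for its part in tolerance of oxidative stress and of alkylating drugs.

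The promoters of the genes are shown here because the antioxidant response element is the feature that defines the pathway. RefSeq (GRCh38.p14) gave 10 windows of 300 bases, from 250 bases before to 50 after a transcription start, for 7 of the 9 genes, all but HMOX1 and SLC7A11. The element was searched as its core, TGACNNNGC, on both strands, and 4 windows of 3 genes held it. Those 4 are printed below from 5′ to 3′ on the strand of the gene, with the matches in capitals.
KEAP1, chr19:10502722-10503021, minus strand: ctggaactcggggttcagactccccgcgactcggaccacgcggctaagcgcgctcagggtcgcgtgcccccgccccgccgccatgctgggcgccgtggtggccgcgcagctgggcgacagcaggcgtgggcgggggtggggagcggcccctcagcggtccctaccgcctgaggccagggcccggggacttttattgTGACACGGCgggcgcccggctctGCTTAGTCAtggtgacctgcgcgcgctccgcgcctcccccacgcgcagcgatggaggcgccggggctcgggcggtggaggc
GCLM, chr1:93909381-93909680, minus strand: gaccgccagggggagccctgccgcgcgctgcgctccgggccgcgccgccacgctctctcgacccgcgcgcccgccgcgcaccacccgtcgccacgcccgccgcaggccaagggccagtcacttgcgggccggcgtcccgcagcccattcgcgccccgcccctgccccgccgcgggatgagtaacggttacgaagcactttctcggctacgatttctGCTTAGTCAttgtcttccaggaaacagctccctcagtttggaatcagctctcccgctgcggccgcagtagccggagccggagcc
TXNRD1, chr12:104215529-104215828, plus strand: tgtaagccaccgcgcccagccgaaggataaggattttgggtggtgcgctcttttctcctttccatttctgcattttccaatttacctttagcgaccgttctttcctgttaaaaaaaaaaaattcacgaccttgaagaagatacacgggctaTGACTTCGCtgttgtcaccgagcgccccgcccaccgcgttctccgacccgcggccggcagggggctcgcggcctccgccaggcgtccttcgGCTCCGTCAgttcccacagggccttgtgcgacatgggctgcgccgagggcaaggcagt
TXNRD1, chr12:104286782-104287081, plus strand: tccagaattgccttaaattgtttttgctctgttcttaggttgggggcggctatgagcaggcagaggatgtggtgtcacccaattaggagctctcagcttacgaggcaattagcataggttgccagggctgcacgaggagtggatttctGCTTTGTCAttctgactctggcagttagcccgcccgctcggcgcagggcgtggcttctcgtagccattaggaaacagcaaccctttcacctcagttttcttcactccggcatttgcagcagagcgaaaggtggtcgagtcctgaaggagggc
KEAP1 had matches starting 54 and 31 bases before the start site in one of its windows, and the match of GCLM started 34 bases before. The second match of KEAP1 and the match of GCLM have the same 9 letters. TXNRD1 had matches 99 and 8 bases before its upstream start and 102 bases before a downstream one. The core was in 40.0% of these 10 windows and in 13.3% of all 35116 windows of the table. Per gene, it was in 42.9% of 7 genes and in 16.1% of 27305. Among the genes with a window, the targets NQO1, GCLC and SRXN1 and the regulator NFE2L2 had no match. The AP-1 motif TGANTCA, which can share letters with the core, was in none of the 10 windows and in 7.71% of all. A match describes the letters and is not evidence of binding, and windows of this size leave out distal elements.

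By fragment numbers recovered with inferred scaling factors, the libraries held 12596072 to 20027866 fragments. The detection floor of 3 fragments was worth 0.150 to 0.238 CPM (counts-per-million, the share of a library's fragments). HDAC6 stood at 17.8 CPM in R-U87MG si-NC and 5.32 CPM in R-U87MG si-HDAC6. *LINC00461* (gene symbol LINC00461) stood at 18.1 CPM in U87MG si-NC and 4.11 CPM in U87MG si-*LINC00461*. In R-U87MG si-NC and R-U87MG si-HDAC6 it was lower than in U87MG si-NC, at 9.26 and 6.35 CPM. HDAC6 was at 32.4 CPM in U87MG si-NC and 30.4 CPM in U87MG si-*LINC00461*. VIM and CD44, markers of glial and mesenchymal GBM lines, were at 1604 CPM or more in every library and NES was at 35.01 to 43.03 CPM, whereas SOX2, GFAP and S100B were below 1 CPM in all 4 libraries. VIM was at 6327 to 6940 CPM in 3 libraries and at 3170 CPM in U87MG si-*LINC00461*. OLIG2, a marker of the oligodendrocyte lineage, was at 5.53 and 9.13 CPM in the R-U87MG libraries and at 0.749 and 1.01 CPM in the U87MG libraries. The summed immune markers PTPRC and CD14 were at 0.200 to 0.635 CPM, and the epithelial markers EPCAM and CDH1 at 1.99 to 3.60 CPM. The endothelial markers PECAM1 and CDH5 summed to 1.35 to 2.95 CPM in 3 libraries and to 25.1 CPM in U87MG si-*LINC00461*, nearly all of it PECAM1.

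Together the 9 genes took 3274 CPM in R-U87MG si-NC and 3427 CPM in R-U87MG si-HDAC6, against 686 CPM in U87MG si-NC and 661 CPM in U87MG si-*LINC00461*. The sums are shares of all fragments, whereas the folds that follow were taken after TMM normalization of the 2 libraries compared. All 9 genes were higher in the resistant than in the parental control library. The 5 genes SRXN1, SLC7A11, TXNRD1, HMOX1 and NQO1 were higher by 4.04-fold to 7.33-fold. Of all genes compared, 11.2% were at least 2-fold higher there. HDAC6 depletion in R-U87MG left all 9 within 2-fold, where 0.694% of all genes were at least 2-fold higher and 0.747% lower. *LINC00461* depletion in U87MG left 8 within 2-fold, and SLC7A11, the cystine transporter, was 7.70-fold lower. After it, 5.42% of all genes were at least 2-fold higher and 8.17% lower.

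**Figure D1:**
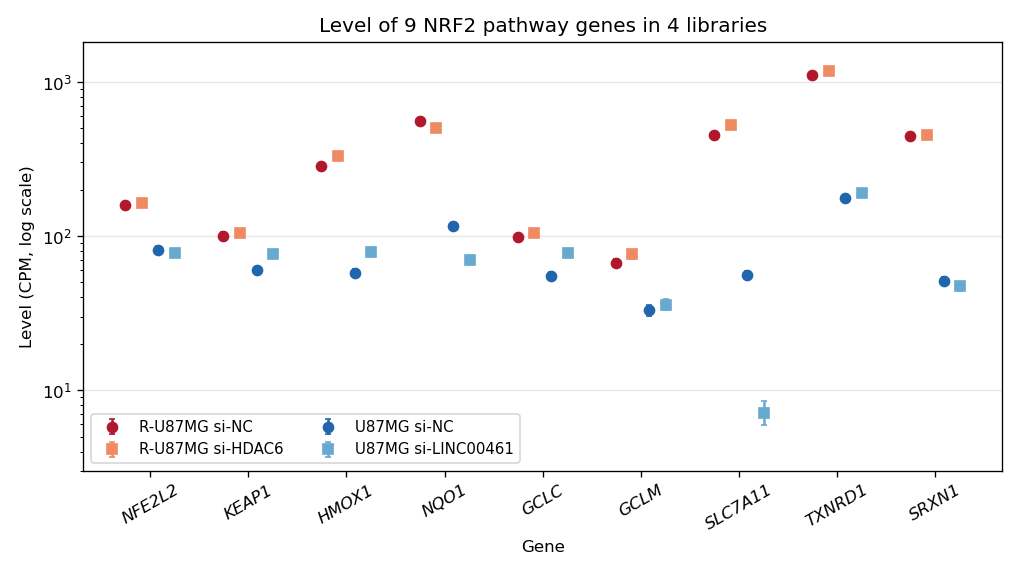
Level of each of the 9 genes in the 4 libraries, in CPM on a log axis, with circles for si-NC, squares for si-HDAC6 or si-LINC00461, red shades for R-U87MG and blue shades for U87MG. Bars are 95% exact intervals of counting error in 1 library; for every gene both R-U87MG points lie above both U87MG points, and SLC7A11 in U87MG si-LINC00461 is the lowest point at 7.14 CPM.

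Both regulators were within 2-fold in all 3 comparisons. NFE2L2 (ENSG00000116044, chromosome 2, 177227595 to 177392697, minus strand, GRCh38) was at 157.8 CPM in R-U87MG si-NC, 164.7 CPM in R-U87MG si-HDAC6, 81.7 CPM in U87MG si-NC and 77.8 CPM in U87MG si-*LINC00461*. The resistant libraries were high and the parental ones low, with little difference inside each pair. Ratios are given on the log2 scale after TMM normalization of the 2 libraries compared, with a 95% exact binomial interval that covers counting error only. For NFE2L2 the log2 ratio of R-U87MG si-NC to U87MG si-NC was 0.69 (0.60 to 0.78), a fold of 1.61. It was 0.05 (−0.03 to 0.13) for si-HDAC6 against si-NC and −0.05 (−0.16 to 0.05) for si-*LINC00461* against si-NC, and both intervals include 0. NFE2L2 shares 13.2% of its 50-base exon stretches with other annotated genes, chiefly AC019080.1 on the same strand, which was given 22 to 61 fragments. The fragment numbers of NFE2L2 were not whole in any library, so its level depends on how shared fragments were divided.

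KEAP1 (ENSG00000079999, chromosome 19, 10486120 to 10503741, minus strand) was at 100.6 CPM in R-U87MG si-NC, 104.0 CPM in R-U87MG si-HDAC6, 59.9 CPM in U87MG si-NC and 75.9 CPM in U87MG si-*LINC00461*. It was lowest in the parental control, and the other parental library lay between that and the resistant libraries. The log2 ratio between the control libraries was 0.48 (0.38 to 0.59), the smallest of the 9. After si-HDAC6 it was 0.04 (−0.07 to 0.14), which includes 0, and after si-*LINC00461* it was 0.36 (0.24 to 0.47). Repressor and NFE2L2 were thus both higher in the resistant control.

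HMOX1 encodes the inducible heme oxygenase, which opens the heme ring and releases iron, carbon monoxide and biliverdin. The gene (ENSG00000100292) has its place on chromosome 22, 35380361 to 35394214, plus strand. Its level was 283.4 CPM in R-U87MG si-NC, 328.9 CPM in R-U87MG si-HDAC6, 57.8 CPM in U87MG si-NC and 78.7 CPM in U87MG si-*LINC00461*. Both resistant libraries were high, and within each pair the depleted library was above its control. The log2 ratio between the controls was 2.03 (1.94 to 2.12), 4.08-fold. After si-HDAC6 it was 0.20 (0.14 to 0.27) and after si-*LINC00461* 0.46 (0.35 to 0.57). Both intervals exclude 0 but stay below 2-fold.

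NQO1 encodes a quinone reductase that moves electrons pairwise from NADPH to quinones and is often read as a marker of NRF2 activity. It occupies chromosome 16, 69706996 to 69726951, minus strand (ENSG00000181019). NQO1 was at 560.2 CPM in R-U87MG si-NC, 503.3 CPM in R-U87MG si-HDAC6, 115.6 CPM in U87MG si-NC and 69.8 CPM in U87MG si-*LINC00461*. In both pairs the depleted library was below its control, which among the 9 genes held for NQO1 alone. The log2 ratio was −0.16 (−0.21 to −0.12) after si-HDAC6 and −0.71 (−0.81 to −0.61) after si-*LINC00461*, a level 1.64-fold lower. R-U87MG si-NC exceeded U87MG si-NC by a log2 ratio of 2.01 (1.95 to 2.08).

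GCLC and GCLM are the catalytic and the modifier subunit of glutamate-cysteine ligase, which makes the first and rate-limiting bond of glutathione. SLC7A11 is the light chain of the antiporter that takes up cystine in exchange for glutamate and so supplies cysteine.

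GCLC (ENSG00000001084, chromosome 6, 53497341 to 53616970, minus strand) was at 98.0 CPM in R-U87MG si-NC, 105.0 CPM in R-U87MG si-HDAC6, 55.4 CPM in U87MG si-NC and 77.2 CPM in U87MG si-*LINC00461*. GCLM (ENSG00000023909, chromosome 1, 93885205 to 93909456, minus strand) was at 66.4, 75.9, 32.95 and 35.9 CPM in the same order. Both subunits were higher in the resistant libraries, and GCLC in the *LINC00461*-depleted library lay between the parental control and those. Between the controls the log2 ratio was 0.56 (0.45 to 0.67) for GCLC and 0.75 (0.61 to 0.89) for GCLM. In *LINC00461*-depleted cells it was 0.49 (0.38 to 0.61) for GCLC and 0.14 (−0.02 to 0.30) for GCLM, the latter with 0 inside its interval. In HDAC6-depleted cells it was 0.09 (−0.02 to 0.19) and 0.18 (0.06 to 0.31). Of the exon stretches of GCLC, 6.21% occur in other annotated genes.

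SLC7A11 (ENSG00000151012, chromosome 4, 138164097 to 138242349, minus strand) had the widest range of the 9 genes. It was at 454.6 CPM in R-U87MG si-NC and 524.6 CPM in R-U87MG si-HDAC6, at 55.8 CPM in U87MG si-NC and at 7.14 CPM in U87MG si-*LINC00461*. These levels rest on 7565, 6608, 1117 and 127 fragments. The resistant libraries were high, the parental control intermediate and the *LINC00461*-depleted library low. The log2 ratio after si-*LINC00461* was −2.94 (−3.23 to −2.68), which placed SLC7A11 as number 34 from the lowest of the 13210 genes compared. Against the parental control, the resistant control was higher by a log2 ratio of 2.76 (2.67 to 2.86), 6.79-fold and number 100 from the highest of 13349 genes. After si-HDAC6 the ratio was 0.20 (0.15 to 0.24). The library with the low SLC7A11 level was also the one with 25.1 CPM of endothelial markers and 3170 CPM of VIM, and CHI3L1, a mesenchymal GBM marker, was at 3555 CPM there against 42.1 to 99.96 CPM in the other 3 libraries. The part of these differences in the SLC7A11 result was not tested.

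Both thioredoxin genes were far higher in the resistant than in the parental libraries. TXNRD1 encodes cytosolic thioredoxin reductase, a selenoprotein that keeps thioredoxin reduced with electrons from NADPH, and SRXN1 encodes sulfiredoxin, which repairs overoxidized peroxiredoxins. TXNRD1 (ENSG00000198431, chromosome 12, 104215779 to 104350305, plus strand) was at 1104 CPM in R-U87MG si-NC, 1167 CPM in R-U87MG si-HDAC6, 176.4 CPM in U87MG si-NC and 191.0 CPM in U87MG si-*LINC00461*. It took the most fragments of the 9 genes in every library. The log2 ratio between the controls was 2.38 (2.33 to 2.44), 5.22-fold. After si-HDAC6 it was 0.07 (0.04 to 0.10) and after si-*LINC00461* 0.13 (0.06 to 0.20). These intervals exclude 0, yet the differences were only 1.05-fold and 1.09-fold.

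SRXN1 (ENSG00000271303, chromosome 20, 646615 to 653370, minus strand) was at 448.1 CPM in R-U87MG si-NC, 453.6 CPM in R-U87MG si-HDAC6, 50.9 CPM in U87MG si-NC and 47.3 CPM in U87MG si-*LINC00461*. Its 2 levels within each pair were close. The log2 ratio was 0.01 (−0.04 to 0.06) after si-HDAC6 and −0.09 (−0.22 to 0.04) after si-*LINC00461*, and both intervals include 0. Between the controls it was 2.87 (2.78 to 2.97), 7.33-fold, the largest of the 9 and number 91 from the highest of all genes compared. Of the exon stretches of SRXN1, 84.8% are shared with AL121758.1, a longer gene model on the same strand that was given 0 fragments in all 4 libraries, so fragments of either model appear under SRXN1.

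**Figure D2:**
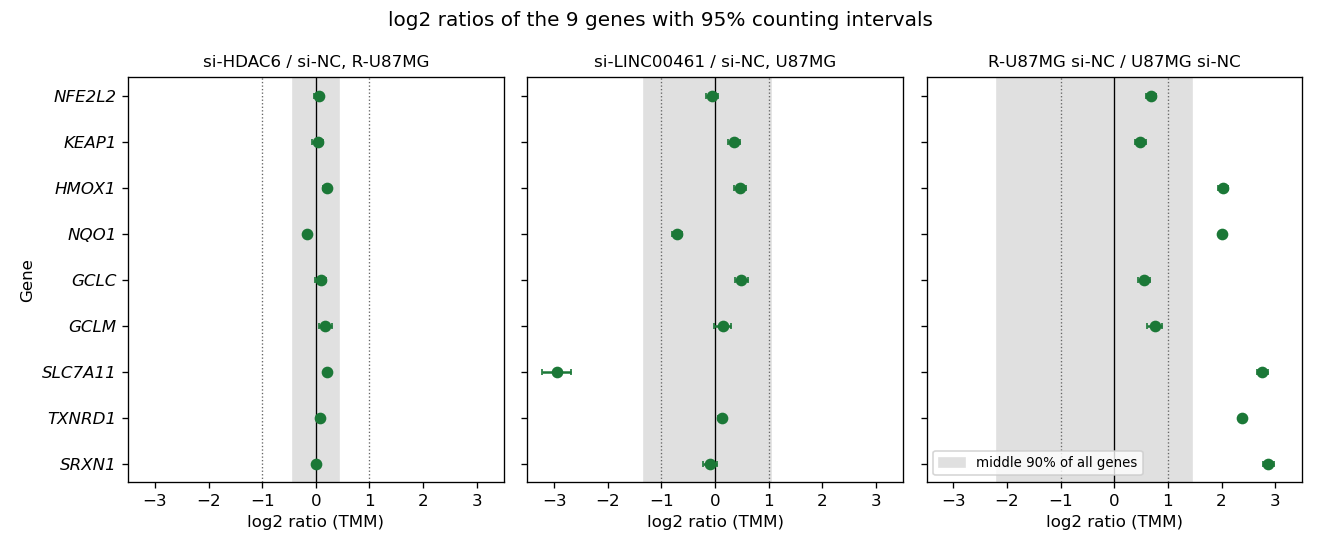
The log2 ratios of the 9 genes in the 3 comparisons, with bars for the 95% counting intervals, dotted lines at 2-fold and a gray band for the middle 90% of all genes compared. All 9 points lie within the band after si-HDAC6, SLC7A11 alone lies outside it after si-LINC00461, and 5 genes lie above it between the resistant and parental controls.

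The counts of the 9 genes past each threshold are given beside the same counts over all genes. The 9 genes were listed with earlier results of these data known, so these shares describe the list and do not test it. Between R-U87MG si-NC and U87MG si-NC, 5 of 9 were at least 2-fold higher, as were 11.2% of the 13349 genes compared, and 0 were at least 2-fold lower, as were 15.0%. Their median log2 ratio was 2.01, beside 0.02 over all genes. The interval lay above 0 for all 9, beside 39.4% of all genes, with 38.8% of all genes below 0. The interval narrows with fragment number, and all genes include those near the filter of 1 CPM. Interval shares, here and after either siRNA, are therefore not matched for level. When the 4 libraries were normalized together, both R-U87MG libraries were above both U87MG libraries for 9 of 9 genes and for 37.6% of all. The lowest resistant level was 1.05 times the highest parental level for GCLC and 1.09 times for KEAP1, and 7.34 times for SRXN1. No counting interval was taken for these ratios, so whether those of GCLC and KEAP1 exceed counting error was not tested. The 2 libraries of a cell line differ in their siRNA and are not replicates. Of the 8 glial and glioma markers, OLIG2 was also higher in the resistant control, at a log2 ratio of 2.58. CHI3L1 (−1.51), NES (−0.45), VIM (−0.21) and CD44 (−0.12) were lower there, and SOX2, GFAP and S100B were below the filter. The 8 summed to 8419 CPM in the resistant control and 8075 CPM in the parental control, before TMM. The part of OLIG2-expressing cells in the result was not tested. TMM set the ratios of this comparison 0.26 below those from total counts on the log2 scale. With total counts GCLM passed 2-fold as well, at 1.01, so that 6 of the 9 did. The share of all genes past 2-fold with total counts was not taken.

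The siRNA comparisons each use one of the control libraries above, so their values stand beside those of the cell lines and not as separate support for them. After si-HDAC6, 0 of the 9 genes were at least 2-fold higher, as were 0.694% of 13120 genes, and 0 were at least 2-fold lower, as were 0.747%. The median log2 ratio was 0.07, beside −0.006 over all genes. The interval was above 0 for 4 genes (HMOX1, GCLM, SLC7A11 and TXNRD1), beside 13.8% of all, and below 0 for NQO1 alone, beside 16.4% of all. The largest of these differences was 1.15-fold, for HMOX1 and SLC7A11.

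After si-*LINC00461*, 0 genes were at least 2-fold higher, beside 5.42% of 13210 genes, and 1, SLC7A11, was at least 2-fold lower, beside 8.17%. The median log2 ratio was 0.13, and it was −0.003 over all genes. The interval was above 0 for KEAP1, HMOX1, GCLC and TXNRD1, beside 33.1% of all genes, and below 0 for NQO1 and SLC7A11, beside 33.4%. Next to SLC7A11 came NQO1, 1.64-fold lower, and the other 7 genes lay between 1.06-fold lower and 1.41-fold higher.

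Levels were compared between genes as CPM per kilobase of merged exons. In R-U87MG si-NC the order was NQO1 (172 CPM per kilobase), SRXN1 (166), TXNRD1 (165), HMOX1 (118), SLC7A11 (47.1), KEAP1 (26.8), NFE2L2 (26.4), GCLM (12.3) and GCLC (11.3). The neighbors NQO1 and SRXN1, SRXN1 and TXNRD1, KEAP1 and NFE2L2, and GCLM and GCLC had overlapping counting intervals, so their order is not resolved. In U87MG si-NC the highest were NQO1 at 35.5, TXNRD1 at 26.3 and HMOX1 at 24.0 CPM per kilobase, the last 2 with overlapping intervals. SLC7A11 was number 5 in both resistant libraries and number 9 in both parental ones, at 5.78 CPM per kilobase in the control and 0.741 in the *LINC00461*-depleted library. In the control its interval overlapped those of GCLM (6.08) and GCLC (6.40), so its last place is not resolved there. With the length of the longest transcript in place of merged exons, 3 of the 9 genes kept their place in the order of mean levels.

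The genes whose 3 log2 ratios were most like those of NFE2L2 were FPGT, AFG3L2 and ZNF639, at Euclidean distances of 0.027, 0.046 and 0.052 among 12388 genes. Their log2 ratios between the control libraries were 0.71, 0.71 and 0.70, and after either siRNA they were between −0.10 and 0.05. None of them is among the 9 genes or the wider pathway list below. The likeness is over 3 ratios from 4 libraries.

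The wider pathway was described with 75 further genes in 7 groups, of which 68 passed the filter of 1 CPM. Between the controls, 9 of the 68 were at least 2-fold higher and 9 at least 2-fold lower, beside 11.2% and 15.0% of all genes, and the median log2 ratio was 0.02. These counts are near the background. Total counts set every ratio of this comparison, also those of the background, 0.26 higher on the log2 scale. The split of the 68 was then 15 higher and 4 lower, with no background share counted at that scale. The highest were OSGIN1, an oxidative-stress-induced growth inhibitor, at 2.61, SLC3A2, the heavy chain that pairs with SLC7A11, at 2.41, SQSTM1, the autophagy receptor p62 that binds KEAP1, at 2.15, and AKR1C1, an aldo-keto reductase, at 1.55. The lowest were GGT1, which splits extracellular glutathione, at −2.07, SOD2, the mitochondrial superoxide dismutase, at −1.75, TXNIP, a thioredoxin inhibitor, at −1.57, and NFE2L1, a relative of NRF2, at −1.44. AKR1C1 has near-identical relatives whose fragments it may share. The wider list thus lay on both sides of 0, with 34 of its genes above and 34 below. It also holds regulators and partners of NRF2 and enzymes outside its targets, so this balance does not measure NRF2 activity.

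By group, the regulators and partners of NRF2 had 1 gene at least 2-fold higher and 2 lower of 11, with a median log2 ratio of −0.34. NFE2L1 was the most abundant of them, at 607 CPM in R-U87MG si-NC and 1377 CPM in U87MG si-NC, and SQSTM1 followed, at 261 and 49.0 CPM. The glutathione genes had 3 higher and 2 lower of 13, with a median of 0.09. In this group SLC3A2 was at 334 CPM in R-U87MG si-NC, 392 CPM in R-U87MG si-HDAC6, 52.3 CPM in U87MG si-NC and 40.7 CPM in U87MG si-*LINC00461*. The partner of SLC7A11 was therefore high in the same libraries, and its log2 ratio after si-*LINC00461* was −0.34 (−0.48 to −0.21). MGST1, a membrane-bound glutathione transferase, had a log2 ratio of 0.54 between the controls.

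Thioredoxin and peroxiredoxin genes had 1 higher and 2 lower of 12, with a median log2 ratio of 0.27 between the controls. PRDX1, an abundant peroxiredoxin, was at 390 CPM in R-U87MG si-NC and 209.8 CPM in U87MG si-NC, and TXNIP was at 173 and 429 CPM. NADPH supply had 0 of 6 past 2-fold, with a median of 0.16, and its most abundant genes TKT and PGD, of the pentose phosphate pathway, had ratios of 0.30 and 0.51. Of the heme and iron genes, 1 of 7 was higher, with a median of 0.26. That gene was FTL, the ferritin light chain, at 1.17, and FTH1, the heavy chain, was at 0.60; both have many processed copies in the genome that may share their fragments. HMOX2, the constitutive heme oxygenase, was listed at 0 in 3 libraries and at 1 fragment in U87MG si-*LINC00461*, and no ratio is given. Whether HMOX2 was absent or its fragments were not counted cannot be told here.

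Quinone, carbonyl and drug detoxification genes had 3 higher and 1 lower of 15, with a median log2 ratio of −0.19 between the controls. AKR1B1, an aldose reductase, was the most abundant and was lower in R-U87MG, at −1.26, while CBR1, a carbonyl reductase, was at −0.37. The superoxide and peroxide enzymes outside the NRF2 targets had 0 higher and 2 lower of 4, with a median of −0.70. SOD1, the cytosolic superoxide dismutase, was at −0.22, against −1.75 for SOD2.

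After si-HDAC6, 0 of the 68 genes were past 2-fold in either direction, beside 0.694% of all genes higher and 0.747% lower. Their log2 ratios ran from −0.32 to 0.60 with a median of 0.08. The interval was above 0 for 25 of them and below 0 for 8, beside 13.8% and 16.4% of all genes, shares not matched for level. After si-*LINC00461*, 0 of the 68 were at least 2-fold higher and 5 at least 2-fold lower, beside 5.42% and 8.17% of all genes, with a median of 0.07. The number lower is near the background. The 5 were AKR1B10, an aldo-keto reductase, at −2.59 (24 fragments against 167 in the control), GSK3B, a kinase that marks NRF2 for degradation apart from KEAP1, at −1.77, TRIM16L at −1.5, TKT at −1.01 and PIR, an iron-binding nuclear protein, at −1.0. The intervals of TKT (−1.07 to −0.95) and PIR (−1.32 to −0.70) include 2-fold, and 3 or 4 genes were lower in place of 5 with upper-quartile scaling (3), a pseudocount of 5 (4) or thinned libraries (4). The group medians ran from −0.31 for the detoxification genes, 3 of the 5, to 0.51 for the heme and iron genes. In the latter group FTH1 was at 0.69, FTL at 0.78 and 0 of 7 past 2-fold. Over the 68 genes the interval was above 0 for 30 and below 0 for 25, beside 33.1% and 33.4% of all genes.

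The counting intervals say nothing of the variation between cultures, which was not measured here. The microarray and protein measurements of the study were not analysed here.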

How the data were processed

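The 4 libraries were grouped by their titles. The authors deposited values per Ensembl gene, read here as estimated counts scaled with a factor for each library. Per the submitters' processing notes, bcl2fastq, Trimmomatic 0.36, HISAT2 and GRCh38.p13 were used; the counting program and annotation are not given in the sources used here. Each value was divided by its factor and rounded, and 94.2% to 94.5% of values above 0 lay within 0.02 of a whole number. Counts had been foreseen in the design, and the rounded numbers were used in their place. Depth, which rests on the inferred factors, was 12596072 to 20027866 fragments.

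For each of 3 comparisons, 2 libraries were normalized with TMM (edgeR 4.0.16, R 4.3.3), and log2 ratios of counts plus 0.5 were taken where the mean CPM was 1 or more. A gene was counted as changed at 2-fold. With 1 library per condition no test was possible, and 95% Clopper-Pearson intervals cover counting error only. The method was tested on simulated library pairs that held counting error only, which cannot speak to variation between cultures. Python 3.11.15, numpy 2.4.6, pandas 2.3.3, scipy 1.17.1 and matplotlib 3.10.9 were used.

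The genes and lists were chosen with earlier results of these data known. Named were the 9 genes, up to 4 listed pathway genes past 2-fold each way per comparison and the 2 most abundant of each group, the 3 genes nearest to NFE2L2, and HDAC6 and LINC00461. PIR was the fifth gene below 2-fold after si-LINC00461 and was named after its value was seen. Alternatives were total counts, DESeq2 1.42.0 size factors, upper quartiles, TMM over 4 libraries, the deposited scaling, pseudocounts of 0.1 and 5, thinned libraries, no filter, other call thresholds and longest transcripts. Shared exon stretches were 50 bases long. RefSeq promoters and GENCODE 29 gave sequences and symbols.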

Additional observations from a re-analysis of the deposited data

How the results depend on the processing

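None of the 9 genes changed the sign of its log2 ratio under any alternative run. SLC7A11 after si-LINC00461 stayed between −3.0 and −2.90. With total counts the ratios between R-U87MG and U87MG moved for all 9 genes, their median was 2.28, and further pathway genes past 2-fold were 15 higher and 4 lower. Called at 1.5-fold, further pathway genes between the cell lines were 19 higher and 17 lower, after si-LINC00461 5 higher and 12 lower with 2 of the 9 genes lower, and after si-HDAC6 1 higher. Without the filter on low counts, 1 further gene was higher and 1 lower after si-HDAC6, and 4 were higher after si-LINC00461. After si-LINC00461, 3 further genes were lower with upper-quartile scaling and 3 with the interval wholly beyond 2-fold, and 1 was higher in thinned libraries. The shares of all genes were not counted under these alternatives, so none of these numbers has a background beside it. The order by length kept 3 places with the longest transcript. The cause of these moves was not tested. Depth limits only genes near the floor, since the 9 genes had 127 to 18377 fragments. No paired analysis was possible because each condition has 1 library, and for the same reason no library could be left out. The deposited scaling was not run between the cell lines because the pairs were scaled separately.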
